A study of Homo sapiens with 6 samples.

Results

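The genes described here are 10 transcription regulators of the ATF4 and CHOP stress response, namely ATF4, ATF3, ATF5, DDIT3, CEBPG, CEBPB, CEBPD, TRIB3, NUPR1 and JDP2. They were taken by symbol from the deposited tables. All 10 were found among the 31369 genes of the count table and the 30896 genes of the FPKM table, and all 10 were among the 15878 genes that passed edgeR's filter on low counts and were tested. RNA-seq was performed on HK-2 cells, an immortalized line of human kidney proximal tubule cells, in a control group (NC, 3 samples) and a group overexpressing *PPM1K* (OE, 3 samples). *PPM1K* encodes the mitochondrial phosphatase that activates the enzyme complex limiting branched-chain amino acid breakdown. The genotype entries read WT for NC and PPM1K overexpress for OE, while the sample titles name shControl and shPPM1K. The methods describe transfection of a *PPM1K* plasmid with a lipid reagent, and the groups were taken from the genotype entries. All 6 samples carry the same entries for treatment (Chronic kidney disease) and time (day 10). What the NC cells received is not given in the sources used here, and whether the replicates came from separate cultures is not given either, so the p-values measure the spread between these samples, which may be technical.

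ATF4 is a basic leucine zipper (bZIP) transcription factor whose translation rises when the initiation factor eIF2alpha is phosphorylated, as happens when amino acids are short, when proteins misfold in the endoplasmic reticulum or when mitochondria are disturbed. It switches on genes that make, import and charge amino acids, often by binding a composite element as a dimer with a C/EBP protein. DDIT3, better known as CHOP, is a further bZIP factor downstream of it and is linked to cell death under lasting stress. TRIB3 is a pseudokinase that binds ATF4 and CHOP and dampens them, NUPR1 is a small chromatin-associated stress protein, and ATF3 and JDP2 are bZIP proteins that often act as repressors. ATF4, ATF5 and DDIT3 are controlled in large part through upstream reading frames in their mRNA, so an mRNA level is not a protein level.

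The start regions of the regulators were searched for short recognition motifs, since dimers of these same proteins bind them. RefSeq promoter windows (GRCh38.p14, 250 bases before to 50 after a start) were at hand for 8 of the 10 genes, with 2 or 3 windows each. The core of the C/EBP-ATF response element, TGATGNAA on either strand, occurred in a window of CEBPG, JDP2 and ATF3, that is in 3 of 8 genes, beside 4.46% of all 27305 genes with a window and 3.62% of all 35116 windows. The AP-1 site TGANTCA occurred in DDIT3 and ATF5, beside 9.37% of all genes and 7.71% of all windows. The cyclic AMP response element TGACGTCA, which has the same outer letters as the AP-1 site, occurred in none of the 8, beside 2.25% of all genes and 1.85% of all windows. The regulators have more windows per gene than genes have on average, so the shares are not a like comparison. The sites are printed in the direction of the gene, with the motif in capitals, because the genes that hold them moved in different directions.
CEBPG: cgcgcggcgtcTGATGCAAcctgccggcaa
JDP2: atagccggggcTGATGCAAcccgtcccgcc
ATF3: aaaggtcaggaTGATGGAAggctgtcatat
DDIT3: gcgcgcgcgcaTGACTCAcccacctcctcc
ATF5: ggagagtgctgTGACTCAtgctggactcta
They lie at chr19:33374060-33374089 (plus strand) for CEBPG, chr14:75427995-75428024 (plus) for JDP2, chr1:212565205-212565234 (plus) for ATF3, chr12:57520737-57520766 (minus) for DDIT3 and chr19:49928707-49928736 (plus) for ATF5. The motif starts 42 bases before a start in CEBPG, 16 in JDP2, 191 in ATF3, 238 in DDIT3 and 188 in ATF5. By GENCODE release 44, the site of ATF5 lies in an exon of ATF5, where IL4I1, NUP62 and a further gene overlap it. Those of CEBPG, JDP2 and DDIT3 lie in the gene but outside its exons, and MBD6 also spans that of DDIT3. The site of ATF3 lies before the gene. CEBPG and JDP2 hold the same 8 letters, and ATF3 differs from them within the core. These matches describe letters in the windows, and binding was not measured.

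The counts summed to between 34635770 and 36116963 in NC and to between 36033404 and 39850802 in OE. Within each group any pair of libraries differed by more than sampling noise, with a mean chi-square per gene of 4.83 to 11.0, so none was a copy of another. NC replicate 2 stood apart. It had at least 1 count in 26478 genes, against 22094 to 22913 in the other samples, and 3551 of these genes were counted in no other sample. By the paper's read distribution, NC replicate 2 also had the largest shares of intronic, intergenic and antisense reads of the 6 samples. The reason was not tested. The count of *PPM1K* was 19 to 53 in NC, against 2919 to 3531 in OE (log2 fold change 6.39, standard error 0.13, adjusted p = 1.1e-18 from edgeR). Of the 17 markers of proximal tubule and epithelium, KRT18, KRT8, PAX8 and CDH2 were the highest, with a mean FPKM in NC of 180, 289, 27.7 and 18.9, while CUBN, AQP1 and HNF4A reached an FPKM of at most 0.04 in any sample and LRP2 and SLC22A6 have no row in the FPKM table, so the defining markers of a mature proximal tubule were at or near 0. Of the 11 of these markers that were tested, 2 were higher and 4 lower in OE, beside 24.9% and 23.7% of all tested genes. The FPKM of the marker list summed to 479.9 to 538.9 in NC and 433.3 to 464.4 in OE. The 12 markers of other cell types summed to an FPKM of 3.72 to 3.89 in NC and 1.97 to 2.07 in OE. Of these, 2 of 5 tested genes were higher and 2 lower, beside the same shares of all tested genes. PTPRC and CD3E were at 0 in 5 of the 6 samples, DCN was at 0 in 3 and UMOD has no row, and most of the sum came from LUM and COL1A1, both of which were lower in OE. The part of these genes in the values that follow was not tested. In bulk RNA, fewer cells of a kind and less RNA per cell cannot be told apart.

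Every one of the 10 regulators passed an adjusted p under 0.05 in edgeR's quasi-likelihood test, 7 with a higher and 3 with a lower level in OE. Among all tested genes 24.9% were higher and 23.7% lower by this rule. With the further condition of a fold change above 2 or below 0.5, which defines a differentially expressed gene (DEG) here, TRIB3, NUPR1, DDIT3 and CEBPG were called higher and CEBPD lower. The share of all tested genes was 1.73% for DEGs higher in OE and 3.79% for those lower. CPM, the counts scaled to library size, did not overlap between the groups in any of the 10, with 7 higher and 3 lower in OE. Of all tested genes 28.2% were higher and 27.1% lower without overlap. The median log2 fold change was 0.80 over the 10 regulators and −0.00 over all tested genes. edgeR's estimate of the variation between replicates, the biological coefficient of variation, lay between 4.59% and 6.91% for the 10, with a median of 7.06% over all tested genes.

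**Figure D1:**
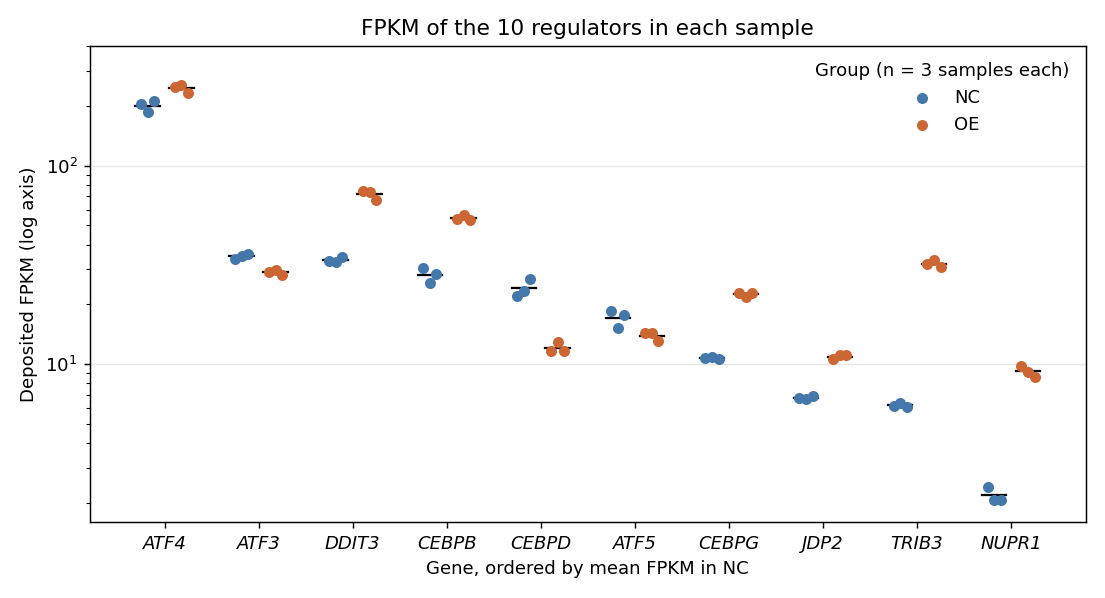
Deposited FPKM (log axis) of the 10 regulators in each sample, with NC in blue and OE in orange, points for samples and black lines for group means (n = 3). The groups do not overlap in any gene, and TRIB3 rises from about the level of JDP2 in NC, 6.22, to above ATF3 in OE, 32.1.

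TRIB3 and NUPR1 changed most. The FPKM of TRIB3, the fragments scaled to transcript length and to the mapped fragments of a sample, was 6.14, 6.41 and 6.11 in NC, in the order of the replicate numbers, and 32.0, 33.5 and 30.7 in OE. The lowest OE sample was thus well above the highest NC sample. From counts of 754 to 817 in NC and 3882 to 4658 in OE, the log2 fold change was 2.35 (standard error 0.06, adjusted p = 2.6e-17 from edgeR), a 5.09-fold rise. TRIB3 had the 15th largest log2 fold change and the fourth smallest p of the 15878 tested genes. NUPR1 had an FPKM of 2.42, 2.07 and 2.07 in NC and 9.84, 9.17 and 8.64 in OE. It was the lowest of the 10 in both groups, and its groups lay far apart. Its log2 fold change was 2.06 (standard error 0.08, adjusted p = 1.5e-14), a 4.17-fold rise, the 24th largest. NUPR1 overlaps a noncoding RNA gene on its own strand by 1969 bases, which was not among the counted genes. The part of shared reads in the values of NUPR1 was not tested. By the paper's RT-qPCR, run on the RNA that was sequenced, NUPR1 rose in OE as well. TRIB3 fell by that measure, which the paper calls statistically significant and at odds with its sequencing. When tested against a fold change of 2 in place of no change, TRIB3 and NUPR1 passed among the 10, and the other 8 did not. Of the relatives of TRIB3, TRIB1, which directs the factor C/EBP alpha to degradation, fell by 0.31 on the log2 scale (adjusted p = 1.2e-04) and TRIB2 did not pass (log2 fold change −0.46, adjusted p = 0.27) at a mean FPKM of 0.12 in NC. NUPR2 has no row in the count table.

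ATF4 itself rose little. It was by far the most abundant of the 10 per length, with an FPKM of 203, 185 and 212 in NC and 249, 256 and 232 in OE. NC replicate 2 was the lowest sample and OE replicate 3 the lowest of its group, and the groups did not overlap. The counts were 18716 to 21609 in NC and 23243 to 28208 in OE, and the log2 fold change was 0.28 (standard error 0.06, adjusted p = 4.2e-04 from edgeR), a 1.21-fold rise. This placed ATF4 3700th of the tested genes by log2 fold change. Without NC replicate 2 it was 0.23 (adjusted p = 0.0030).

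DDIT3 (CHOP) rose 2.11-fold. Its FPKM was 33.0, 32.7 and 34.7 in NC and 74.3, 73.3 and 67.4 in OE. All OE samples were above all NC samples, and OE replicate 3 was the lowest of its group. The log2 fold change was 1.08 (standard error 0.06, adjusted p = 3.1e-12 from edgeR), just past the fold change threshold. In GENCODE release 44 (GRCh38) the gene spans chromosome 12, 57516588 to 57521737, on the minus strand. It overlaps MARS1 by 982 bases at their ends and MBD6 by 1028 bases, both on the other strand, and on its own strand a further protein-coding gene by 2769 bases, which has no row in the count table. MARS1, a tRNA synthetase gene and a target of ATF4, rose by about as much (log2 fold change 1.13, adjusted p = 1.8e-13), from 3856 to 4099 counts in NC and 8515 to 10061 in OE. The library kit keeps the strand, but whether the counting used it is not given in the sources used here, and strand would not separate the overlap on the same strand, so the part of shared reads in these values was not tested.

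The 3 C/EBP genes went in different directions. CEBPG, a short C/EBP protein and dimer partner of ATF4, had an FPKM of 10.7, 10.8 and 10.6 in NC and 22.7, 21.9 and 22.9 in OE. Its replicates lay close together in both groups, and its log2 fold change was 1.05 (standard error 0.05, adjusted p = 1.1e-12 from edgeR). CEBPB, an activator of stress and inflammatory genes, had 30.3, 25.7 and 28.5 in NC and 53.8, 56.2 and 53.1 in OE. With a log2 fold change of 0.93 (adjusted p = 3.1e-11, standard error 0.06) it stayed just under the DEG threshold. CEBPB overlaps the antisense gene CEBPB-AS1 by 669 bases, which had 14 to 20 counts in NC and 42 to 49 in OE, few beside the 1831 to 4366 of CEBPB. CEBPD, known as an early responder to cytokines, had an FPKM of 22.0, 23.3 and 26.9 in NC and 11.6, 12.9 and 11.7 in OE. Every OE sample was below every NC sample, and NC replicate 3 was the highest. CEBPD fell by 1.02 on the log2 scale (standard error 0.08, adjusted p = 2.9e-09). This lay just beyond the fold change threshold. The value was −0.93 without NC replicate 3, and CEBPD was no DEG without that sample, without OE replicate 1 or without OE replicate 3.

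**Figure D2:**
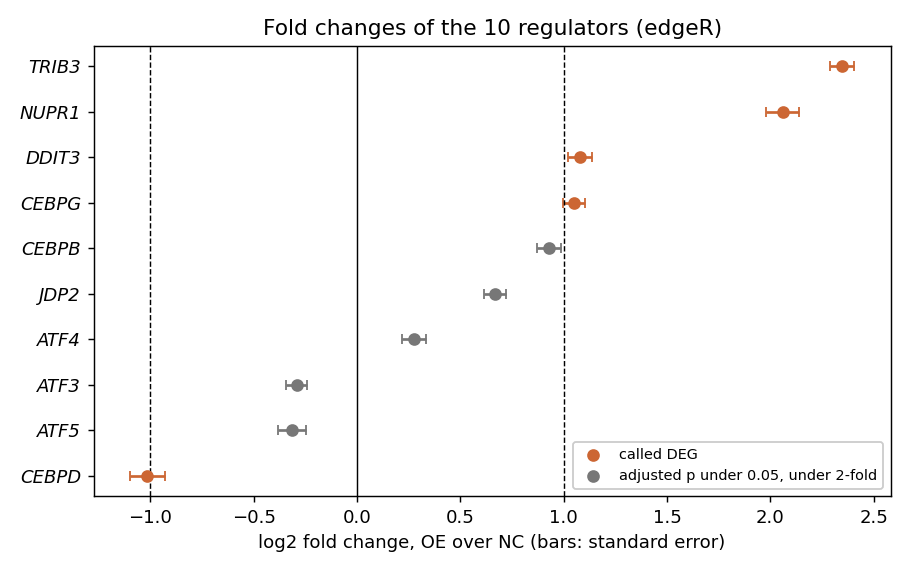
Log2 fold change of OE over NC (points) with its standard error (bars) for each of the 10 regulators, with dashed lines at a fold change of 2 in either direction and DEGs in orange. TRIB3 (2.35) and NUPR1 (2.06) lie far beyond the line, while DDIT3, CEBPG, CEBPB and CEBPD lie close to it.

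The make-up of the 3 C/EBP mRNAs differed between the groups. The share of CEBPD in their summed FPKM was 34.9%, 38.9% and 40.8% in NC and 13.2%, 14.2% and 13.3% in OE. The share of CEBPB went from 44.7% ± 2.91 (SD, n = 3) in NC to 61.1% ± 0.642 (SD, n = 3) in OE, and that of CEBPG from 17.1% ± 1.03 to 25.3% ± 1.12. CEBPD thus stood before CEBPG in each NC sample and after it in each OE sample. The sum itself was 63.0 ± 3.08 in NC and 88.9 ± 1.75 in OE. CHOP acts by pairing with C/EBP proteins, and DDIT3 over this sum was 0.523, 0.546 and 0.525 in NC and 0.843, 0.807 and 0.768 in OE, higher in each OE sample. These shares were worked out after the values had been seen and were not tested.

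**Figure D3:**
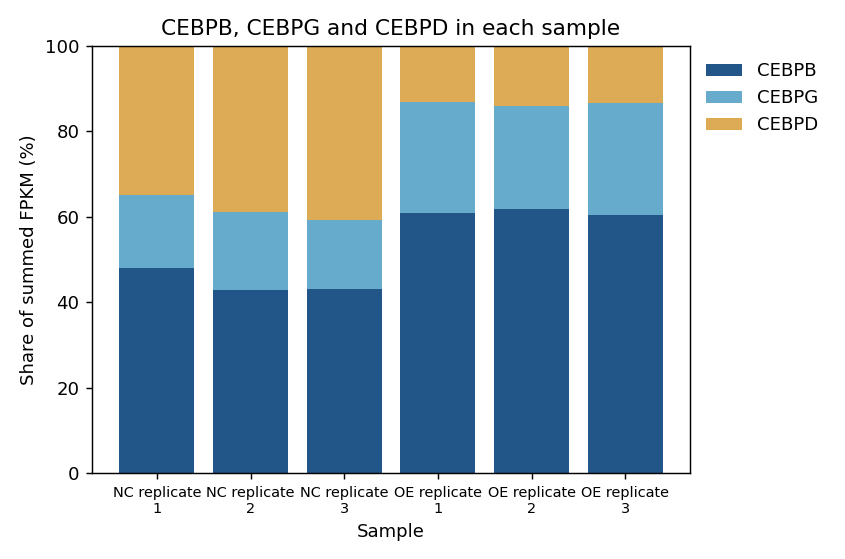
Share (%) of CEBPB, CEBPG and CEBPD in their summed FPKM, 1 bar per sample. CEBPD takes 34.9% to 40.8% in the NC samples and 13.2% to 14.2% in the OE samples.

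The bZIP repressors were split as well. JDP2, which binds AP-1 and ATF sites and represses them, had an FPKM of 6.78, 6.65 and 6.88 in NC and 10.6, 11.1 and 11.1 in OE. The groups were far apart relative to their spread, and the log2 fold change was 0.67 (standard error 0.05, adjusted p = 1.4e-09 from edgeR). ATF3, in most cells a classic target of ATF4, had 34.0, 35.2 and 35.9 in NC and 29.1, 29.8 and 28.1 in OE. Each OE sample was below each NC sample, and ATF3 fell by 0.29 on the log2 scale (standard error 0.05, adjusted p = 6.8e-05). ATF5, the closest relative of ATF4 and linked to the mitochondrial stress response, had 18.5, 15.2 and 17.6 in NC and 14.3, 14.3 and 13.1 in OE. NC replicate 2 lay nearest to the OE samples. ATF5 fell by 0.32 on the log2 scale (standard error 0.07, adjusted p = 5.5e-04), and by 0.38 without NC replicate 2. ATF5 overlaps NUP62 by 1063 bases and IL4I1 by 838 bases on the other strand, neither of which passed the test (log2 fold change −0.08 and −0.00). A further protein-coding gene on the other strand overlaps ATF5 by 5234 bases and was not among the counted genes. The part of shared reads in the values of ATF5 was not tested.

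In NC the order of the levels per length was ATF4, ATF3, DDIT3, CEBPB, CEBPD, ATF5, CEBPG, JDP2, TRIB3 and NUPR1, from an FPKM of 200.1 ± 13.9 to 2.19 ± 0.202 (SD, n = 3). Neighbours whose samples overlapped were ATF3 (35.0 ± 0.993) and DDIT3 (33.4 ± 1.07), and CEBPB (28.2 ± 2.32) and CEBPD (24.1 ± 2.56). In OE it was ATF4, DDIT3, CEBPB, TRIB3, ATF3, CEBPG, ATF5, CEBPD, JDP2 and NUPR1, from 246 ± 12.3 to 9.22 ± 0.601, with no overlap between neighbours. TRIB3 thus moved from the ninth place to the fourth and ATF3 from the second to the fifth. ATF3 and DDIT3 were at about the same FPKM in NC (ratio 1.03 to 1.08) and at 0.392 to 0.417 in OE. The FPKM of the 10 genes summed to 343 to 382 in NC and to 479 to 518 in OE, of which ATF4 took 55.0% ± 0.926 in NC and 49.0% ± 0.474 in OE (SD, n = 3).

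To compare the changes of the regulators with that of ATF4 free of any scaling between libraries, each count was divided by that of ATF4 in the same library. The log2 ratio of TRIB3 to ATF4 was −4.72, −4.52 and −4.79 in NC and −2.63, −2.60 and −2.58 in OE, a difference of 2.07 (standard error 0.08). TRIB3 thus rose 4.20-fold relative to ATF4. The difference was 1.78 for NUPR1, 0.80 for DDIT3, 0.77 for CEBPG, 0.65 for CEBPB and 0.39 for JDP2. It was −0.57 for ATF3, −0.59 for ATF5 and −1.29 for CEBPD. The groups did not overlap in any of the 9 ratios. In the exact permutation test (two-sided) p was 0.1 for each, which is as low as 3 against 3 samples can go, and it was 0.1 after Benjamini-Hochberg adjustment over the 9. Of all tested genes, 8.36% had a ratio to ATF4 that was higher without overlap and 47.5% one that was lower.

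**Figure D4:**
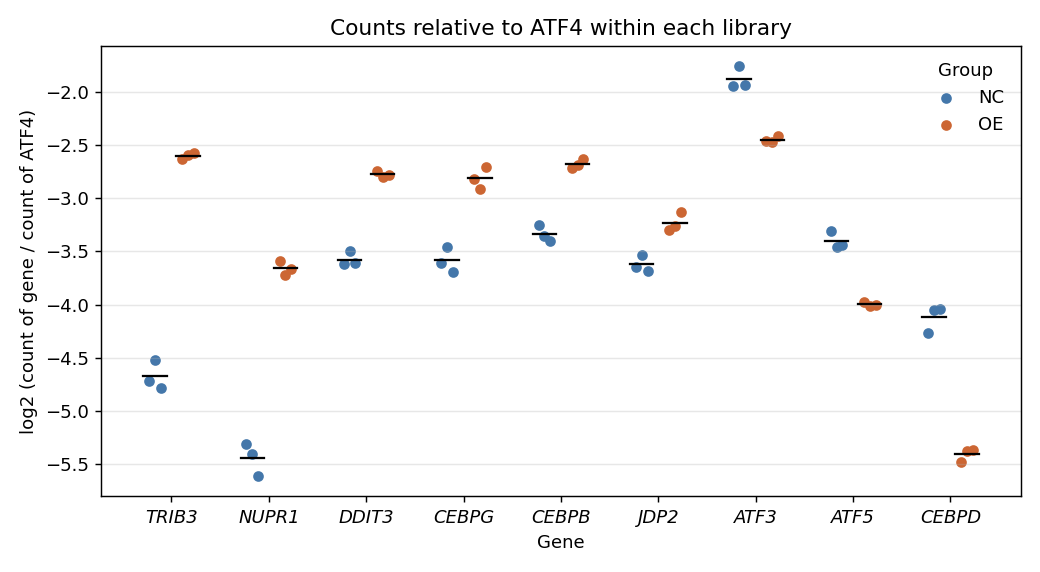
Log2 of the count of each regulator over the count of ATF4 in the same library, with NC in blue, OE in orange and black lines for group means (n = 3). The OE samples lie above the NC samples for TRIB3, NUPR1, DDIT3, CEBPG, CEBPB and JDP2 and below them for ATF3, ATF5 and CEBPD.

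Of 47 genes in 4 lists of known ATF4 targets, which leave out the 10 regulators, 45 were tested. The lists were chosen with earlier results of these data known, so their counts are no independent support. By edgeR 42 of them were higher and 2 were lower, beside 24.9% and 23.7% of all tested genes, with a median log2 fold change of 0.99. DEGs numbered 22, all higher, beside 1.73% of all tested genes. ATF3, itself a target of ATF4, is not in these lists and fell. All 13 genes of tRNA charging and export were higher, and the smallest p were those of WARS1 (log2 fold change 1.49), SARS1 (1.20), GARS1 (1.09) and MARS1 (1.13), which charge tRNA with tryptophan, serine, glycine and methionine. All 8 tested amino acid transporter genes were higher, and SLC7A5, SLC3A2, SLC7A11 and SLC7A1 had the smallest p (1.58, 1.40, 1.73 and 0.96). Of 11 genes of amino acid synthesis and one-carbon metabolism, 10 were higher. ASNS, the asparagine synthetase, rose from an FPKM of 2.92 ± 0.129 to 15.0 ± 0.758 (SD, n = 3), and PHGDH, SHMT2 and PSAT1 of the serine and glycine route had log2 fold changes of 1.57, 1.31 and 1.33. ALDH18A1, the first enzyme of proline synthesis, fell by 0.53 on the log2 scale (adjusted p = 5.3e-06 from edgeR). Of 13 tested stress effectors 11 were higher. Among them were SESN2, an inhibitor of mTORC1 (log2 fold change 1.87), GADD45A, a growth arrest gene (1.28), INHBE, a secreted inhibin subunit (2.26), and the angiogenic factor VEGFA, whose FPKM went from 8.36 ± 0.470 to 23.9 ± 0.456 (SD, n = 3). VLDLR, a lipoprotein receptor, fell by 0.49 on the log2 scale (adjusted p = 2.7e-07), and HMOX1 did not pass (log2 fold change 0.18, adjusted p = 0.16).

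Of 8 genes listed as targets of CHOP, 6 were higher and 1 lower, beside 24.9% and 23.7% of all tested genes. The median log2 fold change was 0.72. CHAC1 of this list is also counted among the stress effectors, and DNAJB9 among the other arms of the unfolded protein response. PPP1R15A, which directs the phosphatase of eIF2alpha and so closes the loop, had an FPKM of 332 ± 20.5 in NC and 682 ± 32.0 in OE (SD, n = 3; log2 fold change 1.02, adjusted p = 6.6e-12 from edgeR). PMAIP1 and TNFRSF10B, which promote cell death, rose by 0.73 and 0.79 and DNAJB9, a co-chaperone, by 0.72. ERO1A, an oxidase of the endoplasmic reticulum, was lower by a small margin (log2 fold change −0.16, adjusted p = 0.019), which did not pass with the replicate number as a block, in the limma fits, or without NC replicate 1, OE replicate 1 or OE replicate 2. BCL2L11 did not pass (−0.12, adjusted p = 0.47).

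The genes upstream of ATF4 were divided. Of 11, 4 were higher and 5 lower, beside 24.9% and 23.7% of all tested genes. Of the eIF2alpha kinases, EIF2AK1 (HRI, the kinase for heme and mitochondrial stress) fell by 0.48 and EIF2AK3 (PERK, the kinase of the endoplasmic reticulum) by 0.54 on the log2 scale (adjusted p = 9.5e-08 and 1.1e-05 from edgeR). EIF2AK2 (PKR, the kinase for double-stranded RNA) rose by 0.30, and EIF2AK4 (GCN2, the kinase for uncharged tRNA) did not pass (log2 fold change 0.18). EIF2S1, the subunit that is phosphorylated, rose by 0.46, while PPP1R15A, which is in this list too, was the only DEG. The other arms of the unfolded protein response had no common direction. Of 19 genes 6 were higher and 8 lower, beside the same shares of all tested genes, with a median of 0.01. The chaperones HSP90B1, PDIA4, CALR and SDF2L1 fell by 0.91, 0.77, 0.77 and 0.92 on the log2 scale. HSPA5, a chaperone of the same list, fell by only 0.22 (adjusted p = 0.0012 from edgeR), and the co-chaperone DNAJB9 rose by 0.72. ERN1, which encodes the sensor IRE1, rose by 1.02 at an FPKM under 1, and XBP1, the mRNA that it splices, by 0.33.

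**Figure D5:**
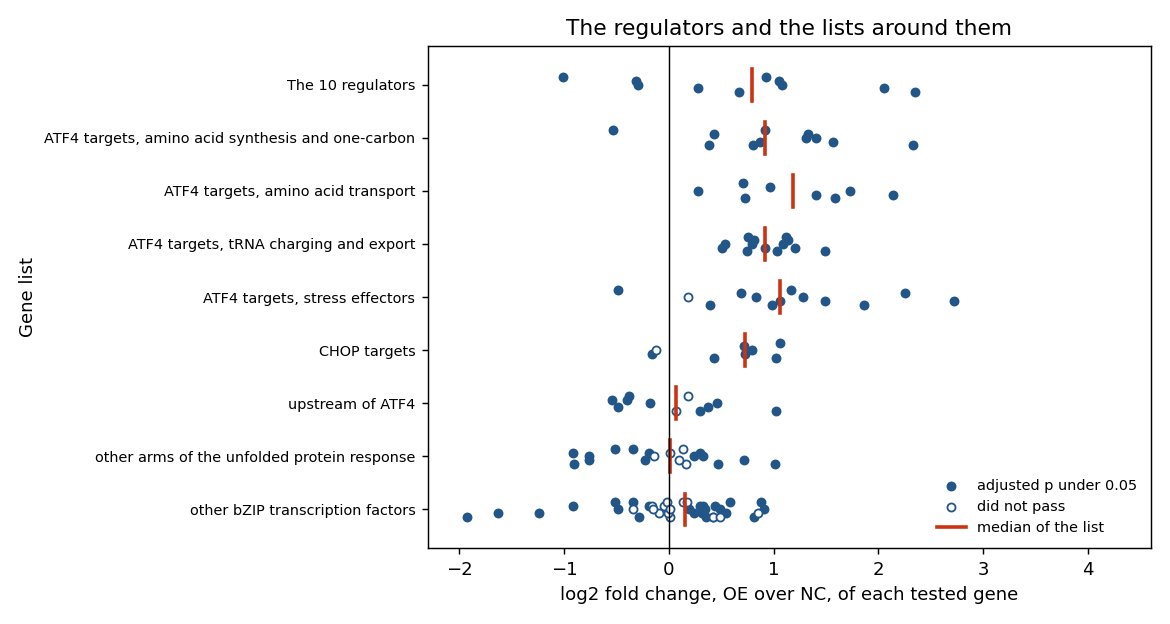
Log2 fold change of OE over NC of each tested gene, for the 10 regulators and 8 lists around them, chosen with earlier results of these data known. Filled points passed an adjusted p under 0.05, open points did not, and red bars mark the median of a list, which is 0.80 for the regulators, between 0.91 and 1.18 for the lists of ATF4 targets and near 0 for the upstream genes and the other arms of the unfolded protein response.

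Among 38 other tested bZIP genes, 15 were higher and 9 lower, beside 24.9% and 23.7% of all tested genes, and the median log2 fold change was 0.15. DEGs were 3 in number, FOS, FOSB and MAF, all lower, beside 3.79% of all tested genes, and none was higher, beside 1.73%. The immediate early gene FOS, a partner of JUN in AP-1, had an FPKM of 14.2 ± 0.186 in NC and 3.78 ± 0.226 in OE (SD, n = 3; log2 fold change −1.93, adjusted p = 1.0e-14 from edgeR). FOSB fell by 1.64 and JUNB by 0.92 on the log2 scale. Of the other AP-1 genes FOSL1, JUN and FOSL2 rose, with log2 fold changes of 0.88, 0.44 and 0.42 (adjusted p = 1.3e-11, 2.2e-07 and 3.1e-07 from edgeR), and JUND did not pass (−0.01, adjusted p = 0.91). NFE2L1, which drives proteasome genes, rose by 0.91. XBP1 and some further genes of this list are also counted among the other arms of the unfolded protein response. Of the 39 genes named by the rule given below, from the ATF4 targets to the tribbles relatives, 22 overlap another annotated gene. Their counts share the uncertainty given for DDIT3.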

How the data were processed

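The authors removed reads holding over 2 N bases, clipped adaptors and bases of low quality, aligned to GRCh38 with HISAT2 and took uniquely mapped reads. The deposited counts are raw counts per gene, and the deposited FPKM values are given to 2 decimals. The counting program, its strand setting and the annotation release are not given in the sources used here. GRCh38 and mm10 are both named in the submitters' processing notes, and the gene identifiers are human (99.8% were found in GENCODE release 44).

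Here the counts were tested with edgeR 4.0.16 in R 4.3.3 (filterByExpr, TMM, glmQLFit and glmQLFTest), with Benjamini-Hochberg adjustment over the 15878 tested genes. A gene passed at an adjusted p under 0.05. A DEG also needed a fold change above 2 or below 0.5. The standard error is the size of the log2 fold change over the square root of F. Ratios to ATF4 were tested with exact permutation tests. The alternatives were DESeq2 1.42.0, limma 3.58.1 on FPKM (as log2, with 1 or 0.1 added), other normalizations, no filter, a block for the replicate number, a test of the fold against 2 and each sample left out. The fits were tested on simulated data.

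The 10 regulators and the 11 gene lists were chosen with earlier results of these data known. Named from each list were up to 4 genes with the smallest p and up to 3 that passed in the other direction, and for the DEGs and ATF4 the 3 genes of nearest profile. HMOX1, CHAC1, BCL2L11, EIF2AK4, HSPA5, MAF, FOSL1, FOSL2, JUN and JUND, the absent genes and the overlapping genes were named after their values had been seen. Some marker genes are not reported here by name. Plots used matplotlib 3.10.9 (Python 3.11.15).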

Additional observations from a re-analysis of the deposited data

How the results depend on the processing

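Each of the 10 regulators kept its direction in all 15 alternatives. Judged by an adjusted p of 0.05, and by the DEG call in the test against 2-fold, 146 of 150 values kept their side. The other 4 were ATF5 under limma on log2(FPKM + 1) without a filter (−0.28, adjusted p = 0.054) and DDIT3, CEBPG and CEBPD when edgeR tested against a fold change of 2 (adjusted p = 1 each), an alternative judged against the DEG call. That test left 2 DEGs higher and 0 lower among the 10, and 68 higher and 118 lower among all tested genes. CEBPD lay under the fold change threshold in all 3 limma fits, which left 0 DEGs lower, and with a sample left out the number was 0 or 1, being 0 without NC replicate 3, OE replicate 1 or OE replicate 3. limma on log2(FPKM + 1) called 56 DEGs higher and 69 lower over all genes with a filter, and 56 and 67 without one, and limma on log2(FPKM + 0.1) 382 lower. limma on log2(FPKM + 1) without a filter found 2499 genes lower at an adjusted p under 0.05. The number of CHOP targets that were lower, 1 in the report, was 0 in the 3 limma fits and with the replicate block, and between 0 and 2 with a sample left out. After removing the group means, same-numbered NC and OE samples correlated at 0.000825, −0.0546 and −0.0398 for replicates 1, 2 and 3. These values gave no sign of a pairing by number. They cannot exclude one, since samples of different number were not compared. With the replicate block 274 DEGs were higher and 603 lower, and the counts over the 10 regulators were the same as without it (7 higher and 3 lower, with 4 and 1 DEGs). Neither the use of FPKM in the ratios to ATF4 nor leaving out a sample turned a ratio.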

Other observations

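For the DEGs among the regulators and for ATF4, the nearest profiles were sought among 10485 genes with a mean CPM of at least 5, by the root mean square distance of log2 CPM centred on each gene's mean over the 6 samples. With 2 groups this distance mostly reflects the size of the group difference. TRIB3 lay nearest to ASNS (distance 0.0386), the asparagine synthetase, then to INHBE (0.0806) and BEX2 (0.176). NUPR1 lay nearest to BEX2 (0.0661), PTX3 (0.0678), a secreted pattern recognition protein, and UPP1 (0.104), a uridine phosphorylase. The nearest to DDIT3 were MARS1 (0.0452), whose end overlaps it, GARS1 (0.0501) and LYPD1 (0.0560). For CEBPG they were MARCHF4 (0.0410), STC2 (0.0453) and GLRX2 (0.0458). CEBPD had RNASET2 (0.0506), KCNK6 (0.0519) and MAP3K8 (0.0634) as its nearest. ATF4 lay nearest to R3HDM4 (0.0149), PDCD5 (0.0206) and SGF29 (0.0207).

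The count table holds 3 processed copies of ATF4. ATF4P3 had 16 to 33 counts, ATF4P4 at most 5 and ATF4P1 at most 1 in any sample, beside at least 18716 for ATF4. Reads that map equally well to ATF4 and a copy would not be among uniquely mapped reads, and their number is not in the files.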
